A study of Mus musculus with 3 samples.

Results

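Intermittent CS and continuous CS were compared in AT2 cells, and the transcripts described here are those that lay 1.5- to 2-fold apart between the arrays of these exposures. They were selected on the very difference they describe, the log2 value with intermittent CS minus the log2 value with continuous CS, and on a brighter value at or above the median of its array over all transcript clusters. A transcript cluster is the set of probes that reads 1 transcript on the array, and a value is its log2 signal. In all, 424 of 22206 clusters met the rule. With intermittent CS, 143 of them were higher and 281 were lower. Among the 11297 clusters that met the brightness condition, these are 1.27% and 2.49%, while 15 clusters (0.133%) were at least 2-fold higher and 129 (1.14%) at least 2-fold lower. Since these shares follow from the rule, nothing is read from them.

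The cells came from female Sftpc/GFP transgenic mice on a mixed CBA/Ca and C57BL6J background, 9 to 11 weeks old at the start, in which the promoter of surfactant protein C drives GFP. Air mice breathed air only. Both CS groups were given mainstream smoke in 3 weeks of a protocol that lasted 5 weeks, 60 minutes daily on 5 days per week. The smoke weeks followed each other in continuous CS and alternated with air weeks in intermittent CS, and the lungs were taken 24 hours after the last smoke. Cells that stained strongly for EpCAM, a surface protein of epithelia, and were bright in GFP were sorted, the cells of 3 mice were pooled per group, and 100 ng of RNA was labelled for 1 Clariom S array per group. With 1 array per exposure there is no replicate error, no test was made, and each difference is one between a pair of arrays. The GFP of this line is also weakly present in some cells of the terminal bronchioles, which is a limit of the sort.

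AT2 markers were bright in the sorted cells, and so were some markers of the club cells of the airways. Sftpc, Sftpb and Sftpa1, the surfactant proteins, stood at the ceiling of the file, 19.93, on all 3 arrays. Of 27 measured AT2 markers, 26 lay above the level without signal on every array. At that ceiling, where no difference can be read, stood 6 of them, and of the other 21 markers 18 were higher with intermittent CS, 1 was equal and 2 were lower, none by 1.5-fold. Of the club cell markers, Cbr2 also stood at 19.93 and Scgb1a1 at 19.61 on all 3 arrays. Above the level without signal lay 11 (air), 12 (continuous CS) and 11 (intermittent CS) of 15 club cell markers. For 19 markers of ciliated cells these counts were 8, 10 and 8. As a level without signal served 1414 clusters of olfactory and vomeronasal receptors, whose 95th percentile was 5.15 under continuous CS and 5.14 under intermittent CS. The log2 difference between the CS arrays had an SD of 0.232 over these receptor clusters and of 0.283 over the clusters that met the brightness condition. In 6 of the higher and 14 of the lower members the dimmer value lay below the receptor level, and for these the fold is given as a bound.

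AT2 cells make surfactant, a film of phospholipids and proteins that keeps the alveoli open, and they renew themselves and give rise to the flat AT1 cells that carry gas exchange. They burn and build fatty acids at a high rate, and PPAR transcription factors switch on the genes of fatty acid oxidation when fatty acids are plentiful. Like other epithelial cells they show peptides on MHC class I, which interferons raise. A sort of lung cells can also carry RNA of endothelial cells, leukocytes and AT1 cells. In pooled cells, fewer cells of a type and less RNA per cell cannot be told apart.

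**Figure D1:**
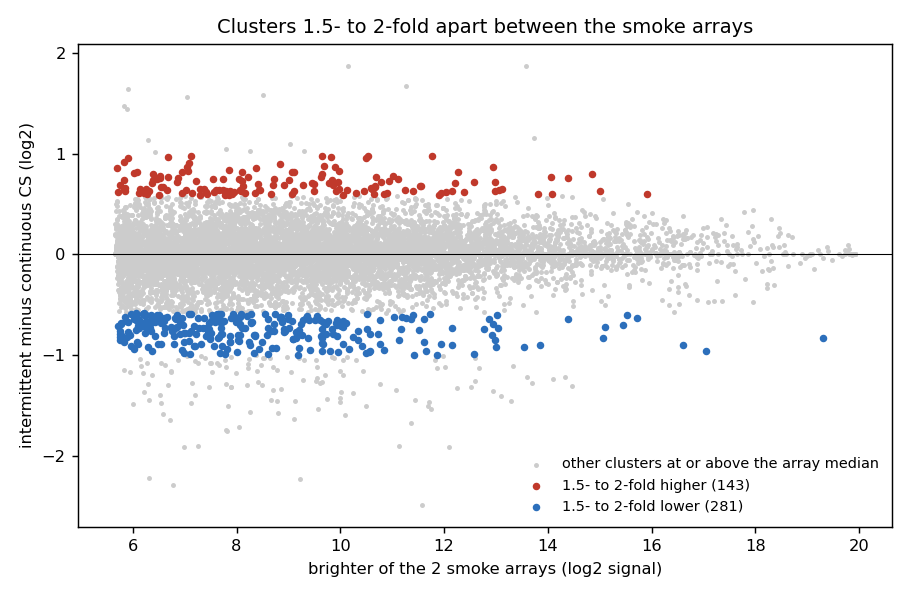
Each point is 1 of the 11297 clusters that met the brightness condition. The horizontal axis is the brighter of both CS values (log2 signal) and the vertical axis is intermittent CS minus continuous CS (log2). The 143 members that were higher (red) and the 281 that were lower (blue) form bands between the unselected clusters and those over 2-fold apart, and the bands run from 5.69 to 15.91 and from 5.71 to 19.31.

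Enzymes of fatty acid oxidation were among the members that were higher with intermittent CS, and none of them was among the lower ones. Of 27 genes of the carnitine shuttle and of mitochondrial oxidation that met the brightness condition, 4 (14.8%) were 1.5- to 2-fold higher. Over all clusters that met the condition the share was 1.27%. In addition 1 gene was over 2-fold higher, and the median difference of the 27 was 0.06 against 0.00 over all such clusters. Counts of the lists below are likewise to be set beside the shares over all clusters that met the condition, 1.27% higher and 2.49% lower. All values below are log2 signals, given in the order air, continuous CS, intermittent CS. Slc25a20, the carrier that brings acylcarnitines into the mitochondrion, read 8.79 (air), 8.86 (continuous CS) and 9.82 (intermittent CS), a 1.95-fold difference between the CS arrays. Acadl, the long-chain acyl-CoA dehydrogenase that opens the oxidation spiral, read 10.92, 11.33 and 11.94, a 1.52-fold difference. Both genes were highest with intermittent CS, and Slc25a20 hardly differed between air and continuous CS. Eci2, an isomerase that lets unsaturated chains pass through the spiral, read 11.36, 12.08 and 12.95, a 1.83-fold difference. Acaa2, the thiolase that closes the spiral, read 12.23, 12.34 and 12.97, a 1.55-fold difference. In each of these 4 genes the air array was the lowest of the 3 and lay nearer to continuous CS.

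Single genes of neighbouring steps of lipid handling went the same way, while the medians of their lists lay near 0. Hsd17b4, the multifunctional enzyme of peroxisomal oxidation, read 11.86 (air), 11.77 (continuous CS) and 12.39 (intermittent CS). It was the only gene in the range among 25 peroxisomal genes (4.0%), whose median difference was 0.08. Acot2, a thioesterase of the mitochondrion that hydrolyses fatty acyl-CoA, read 13.68, 14.06 and 14.85, a 1.73-fold difference. Among 15 acyl-CoA thioesterases and synthetases it was the only gene in the range (6.67%), and their median difference was 0.04. Plin2, the coat protein of lipid droplets, read 11.71, 11.46 and 12.28, a 1.76-fold difference between the CS arrays. In Plin2 and Hsd17b4, but not in Acot2, the air value exceeded that of continuous CS. Angptl4, a secreted inhibitor of lipoprotein lipase and a PPAR target, read 6.31, 7.0 and 7.75. Vnn3, a vanin of pantetheine metabolism, read 8.70, 10.22 and 10.94, so that both CS arrays stood over 1 log2 unit above air. Angptl8, a relative of Angptl4 that was chosen after its values were seen, read 5.82, 5.17 and 5.82. Lipg, the endothelial lipase, went the other way and read 7.07, 7.13 and 6.37. Of 30 genes of lipid droplets and lipolysis, 3 were thus higher and 1 lower within the range, with a median difference of 0.00.

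On the respiratory side of oxidation, 2 of 87 genes of the tricarboxylic acid cycle and the respiratory chain were higher and none was lower. The 2 are 2.3% of the list, against 1.27% over all clusters that met the brightness condition. The median difference of the 87 was 0.01. Dlst, a subunit of the oxoglutarate dehydrogenase complex, read 7.55, 7.55 and 8.16, with air and continuous CS equal. Ndufb8, a subunit of complex I, read 6.54, 6.83 and 7.42. None of the 53 listed antioxidant genes and none of the 31 listed genes of iron and heme was 1.5-fold apart in either direction. The antioxidant list is not complete, and the glutathione-linked enzymes Glrx and Gstp3, which are not on it, were higher members.

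Of the genes that were higher in this group, Plin2 carried the nuclear receptor half-site AGGTCA in its promoter window, 250 bases before to 50 after the RefSeq start, and the windows matched for Slc25a20, Acadl, Eci2, Acot2 and Vnn3 held no exact match. It is shown because PPARs bind repeats of this half-site, with the match, here on the opposite strand, in capitals and 40 bases kept around it where the window allows (GRCm38.p6, chr4:86670232-86670309, minus strand, match starting 218 bases before the gene's start):
Plin2: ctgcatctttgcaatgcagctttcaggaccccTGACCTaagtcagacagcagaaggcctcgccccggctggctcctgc
The half-site was found in 16 of 135 promoter windows of the higher members (11.9%), in 46 of 276 of the lower members (16.7%), in 12.7% of the 10623 windows of genes that met the brightness condition, from which the members come, and in 16.3% of all 32851 windows. A match is only a run of letters, and binding was not measured.

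Genes of cholesterol synthesis were among the lower members, whereas the list of fatty acid and phospholipid synthesis had a median difference of 0.00. Of 29 genes of cholesterol synthesis and sterol transport, 4 (13.8%) were 1.5- to 2-fold lower, against 2.49% over all clusters that met the brightness condition. None was higher, 21 of the 29 lay below 0, and the median difference was -0.34. Mvd, which makes isopentenyl pyrophosphate, read 9.44 (air), 9.73 (continuous CS) and 8.93 (intermittent CS), a 1.74-fold difference. Lss, which folds squalene epoxide into lanosterol, read 12.46, 12.77 and 12.03, a 1.67-fold difference. Dhcr7, of a late step of cholesterol synthesis, read 9.59, 9.63 and 8.82, a 1.75-fold difference. In these 3 enzymes continuous CS was the highest and intermittent CS the lowest array, with air between them. Mylip, an LXR-induced ubiquitin ligase that removes the LDL receptor, read 10.12, 10.05 and 9.15, so that air and continuous CS lay close together.

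Of 47 genes of fatty acid and phospholipid synthesis, 3 were lower and none was higher in the range. Over the 47, 20 lay above 0 and 22 below, with a median difference of 0.00. Fads2, a desaturase of polyunsaturated fatty acids, read 15.57 (air), 15.45 (continuous CS) and 14.75 (intermittent CS), a 1.62-fold difference. Cers6, a ceramide synthase, read 7.88, 8.28 and 7.61. Agpat4, an acyltransferase of phosphatidic acid synthesis, read 6.45, 6.99 and 6.21. Air lay between the CS arrays in Cers6 and Agpat4 and above both in Fads2. Psap, the precursor of the saposins that help break down sphingolipids in lysosomes, was 1.86-fold lower, at 14.05, 13.85 and 12.96. Hpgd, which inactivates prostaglandins, read 11.98, 13.002 and 12.09, with the air and intermittent CS arrays near each other.

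**Figure D2:**
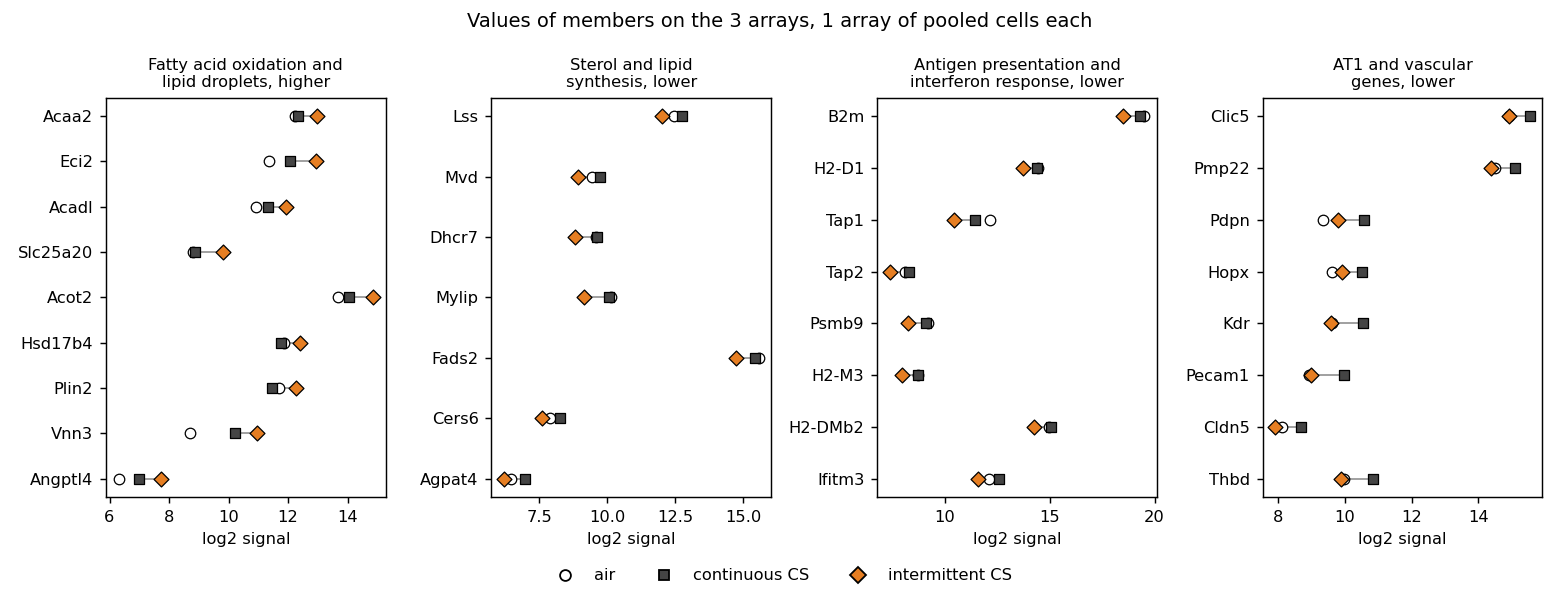
Log2 signal of members on the 3 arrays, air as circles, continuous CS as squares and intermittent CS as diamonds, with a line joining the CS arrays. In fatty acid oxidation the diamond is the rightmost mark of every gene, in the MHC genes it is the leftmost, and in the vascular genes air and intermittent CS nearly coincide for Kdr and Pecam1 while continuous CS stands to their right.

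Most transcripts of antigen presentation on MHC class I were lower with intermittent CS, and presentation itself was not measured. Of 26 such genes that met the brightness condition, 6 (23.1%) were 1.5- to 2-fold lower, against 2.49% over all clusters that met it. A further 2 were over 2-fold lower, 22 of 26 lay below 0, none was in the higher range and the median difference was -0.43. B2m, the light chain that every class I molecule needs, read 19.50 (air), 19.31 (continuous CS) and 18.48 (intermittent CS), a 1.78-fold difference. H2-D1, a classical heavy chain, read 14.45, 14.38 and 13.74. H2-M3, which presents formylated peptides, read 8.71, 8.72 and 7.95. For these 3 chains air and continuous CS lay within 0.20 of each other and intermittent CS stood below both.

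Transcripts of the machinery that supplies the peptides went the same way. Tap1 and Tap2 form the pump that carries peptides into the endoplasmic reticulum. Tap1 read 12.17 (air), 11.41 (continuous CS) and 10.42 (intermittent CS), a 1.998-fold difference just inside the upper limit. Tap2 read 8.09, 8.27 and 7.37. Psmb9, a catalytic subunit of the immunoproteasome, read 9.18, 9.09 and 8.24, a 1.79-fold difference. All 3 were lowest with intermittent CS, and Tap1 and Psmb9 were highest in air. Psmb6, the constitutive subunit that Psmb9 replaces, was a higher member, chosen after its values were seen, and read 12.54, 11.50 and 12.21, with its highest value in air. Psmb9 and Tap1 are direct neighbours among the measured genes, with 1 gene between Tap1 and Tap2 and 1 between Psmb9 and H2-DMb2. For class II, 2 of 18 genes were lower. H2-DMb2, which helps to load peptides, read 14.95, 15.06 and 14.24. Ctss, a protease that trims the invariant chain, read 9.64, 9.40 and 8.74. Because genes of the MHC are alike in sequence, probes may read more than 1 of them.

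Genes induced by interferons were among the lower members along with those of MHC class I. Of 59 that met the brightness condition, 12 (20.3%) were 1.5- to 2-fold lower, against 2.49% over all clusters that met it. Another 2 were over 2-fold lower and none higher in the range, and the median difference was -0.22. Ifitm3, which hinders the entry of viruses, read 12.12 (air), 12.58 (continuous CS) and 11.59 (intermittent CS), a 1.99-fold difference. Tgtp2, an interferon-induced GTPase, read 11.24, 10.35 and 9.5. Air was highest in Tgtp2 and lay between the CS arrays in Ifitm3. Gbp9, a guanylate-binding protein, read 9.36, 9.65 and 8.69. Phf11d read 10.07, 9.54 and 8.93. In 6 of the 12 the air array was the highest of the 3, in 4 it lay between the CS arrays and in 2 it was the lowest. The other members were Ifit3, Ifitm1, Ifitm6, Igtp, Iigp1, Mndal, Rtp4 and Trim30a, of which Ifitm1, Ifitm3 and Ifitm6 lie side by side in the genome. Trim21, an interferon-induced ubiquitin ligase that was chosen after its values were seen, went the other way and read 5.64, 5.90 and 6.57.

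The promoters of several of these genes hold the letters GAAANNGAA, the core of the element that interferon regulatory factors and STAT complexes bind, and 4 are shown to let these sites be compared. The match on either strand is in capitals, the strand printed is that of the gene, and the build is GRCm38.p6. B2m lies at chr2:122147508-122147596 (plus strand, match starting 139 bases before the gene's start), Ifit3 at chr19:34583334-34583475 (plus strand, 3 matches, the first 155 and the second 121 bases before the start), Igtp at chr11:58199482-58199555 (plus strand, 34 bases before the start) and Tgtp2 at chr11:49064234-49064322 (minus strand, 70 bases before the start).
B2m: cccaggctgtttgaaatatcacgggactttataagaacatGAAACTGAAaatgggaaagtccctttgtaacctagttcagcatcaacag
Ifit3: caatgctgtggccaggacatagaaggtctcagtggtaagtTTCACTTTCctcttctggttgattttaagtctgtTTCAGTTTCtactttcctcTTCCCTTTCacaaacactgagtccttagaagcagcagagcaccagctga
Igtp: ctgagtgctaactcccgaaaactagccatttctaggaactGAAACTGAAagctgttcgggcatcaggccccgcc
Tgtp2: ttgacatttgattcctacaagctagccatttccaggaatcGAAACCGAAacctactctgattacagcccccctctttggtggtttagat
The match lies on the gene strand in B2m, Igtp and Tgtp2, and the 3 matches of Ifit3 all lie on the opposite strand. Of the other MHC class I and interferon members, Ifitm3, Mndal and Trim30a also hold the letters. The windows of Tap1, Psmb9, H2-D1, H2-M3, Ifitm1, Ifitm6 and Phf11d held no exact match. Tap2, Gbp9, Iigp1 and Rtp4 had no window. Over all lower members the letters stood in 29 of 276 windows (10.5%), over the higher members in 12 of 135 (8.89%), over the genes that met the brightness condition in 7.03%, and over all windows in 8.56%.

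Cells that could bring such transcripts into the sort were read from their markers. All 20 measured markers of leukocytes in general were lower with intermittent CS, with a median difference of -0.56, and the sum of their linear signals was 49100 for air, 57600 for continuous CS and 47600 for intermittent CS. Laptm5 and Lcp1 held at least 79.9% of it, and the other 18 summed to 9860, 9610 and 6170. Here and below, genes that held over 20% of a sum on any array were set apart, a choice made after the values were seen. Ptprc, the pan-leukocyte phosphatase CD45, read 10.91 (air), 10.41 (continuous CS) and 10.20 (intermittent CS). The part of leukocytes in the MHC and interferon values was not tested.

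Of the 281 lower members 43 (15.3%) were on 8 lists of leukocyte genes, some of which share genes with the endothelial list. The share of all bright clusters on these 8 lists was not counted, so nothing is read from the 15.3%. Of 52 genes of the phagocyte oxidase, the actin machinery and motility of leukocytes, 10 were 1.5- to 2-fold lower and 7 over 2-fold lower, and of 48 genes of macrophages and dendritic cells 10 and 7. In the range these are 19.2% and 20.8%. Over all clusters that met the brightness condition the share was 2.49%, which also stands beside the leukocyte lists below. Neither list had a member in the higher range, and their median differences were -0.32 and -0.37. Cybb, the catalytic subunit of the phagocyte oxidase, read 11.76 (air), 11.86 (continuous CS) and 10.87 (intermittent CS), a 1.99-fold difference. Lsp1, an actin-binding protein of leukocytes, read 10.80, 10.76 and 9.88. Both were nearly level between air and continuous CS. Rac2, a GTPase of hematopoietic cells, read 8.76, 8.94 and 8.18. Csf1r, the receptor for macrophage growth factor, read 8.66, 8.72 and 8.03. For these 4 genes air and continuous CS lay within 0.20 of each other, and intermittent CS was the lowest array. Mpeg1, a pore-forming protein of macrophages, differed in that air was highest, with 10.55, 9.86 and 9.06.

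Receptors of the same cells followed. Of 26 genes for Fc, immunoglobulin-like and inhibitory receptors, 8 were 1.5- to 2-fold lower and 6 over 2-fold lower, 22 lay below 0 and the median difference was -0.61. Sirpa, which receives the CD47 signal that spares cells from being eaten, read 11.78 (air), 12.16 (continuous CS) and 11.44 (intermittent CS). Cd300lf, an inhibitory receptor of the CD300 family, read 8.49, 9.28 and 8.62. Pirb, an inhibitory receptor that binds MHC class I, read 7.21, 7.70 and 6.97. In these 3 continuous CS was the highest array. Vsir, an immune checkpoint, read 7.66, 7.66 and 7.03, with air and continuous CS equal. Tyrobp, the adaptor that many activating receptors share, read 5.99, 6.07 and 5.49, just inside the lower limit. Cd80, Cd300ld and Clec12a complete the 8.

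Of 33 genes of pattern recognition, 6 were 1.5- to 2-fold lower, 4 over 2-fold lower and none higher in the range, and the median difference was -0.28. They are dim, for the 6 became 3 after adding 32 to the linear values and 0 with the brighter value at or above the 75th percentile of its array. Clec4n, a lectin that recognises fungal mannans, read 7.0, 7.66 and 7.07. Clec4e, a sensor of mycobacterial glycolipid, read 7.34, 7.53 and 6.93. These genes lie with 1 measured gene between them. Clec12a, an inhibitory lectin, read 7.0, 7.59 and 6.94. Clec4a1, of the same family, read 6.58, 7.09 and 6.30. In all of these lectins continuous CS was the highest array, and Trem1 and Colec12 complete the 6.

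Among 56 leukocyte kinases, phosphatases and adaptors 6 were lower and none was higher in the range. Arhgdib, one of the leukocyte markers given above, read 10.12, 9.93 and 9.28. Inpp5d, the inositol phosphatase SHIP1, read 8.26, 8.02 and 7.17. Both were highest in air. Sla, an adaptor that dampens receptor signals, read 7.99, 8.36 and 7.56, with its highest value under continuous CS.

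Of 30 neutrophil genes 4 were lower in the range, 6 over 2-fold lower and none higher. S100a9, a subunit of calprotectin, read 8.03, 8.34 and 7.36. Pglyrp1, a peptidoglycan-binding granule protein, read 8.77, 10.04 and 9.33. In Pglyrp1 air was the lowest array. Cd24a, a surface glycoprotein that epithelia also carry, read 8.35, 9.08 and 8.23. Trem1, a receptor that amplifies inflammation, read 6.66, 6.99 and 6.01. None of the 4 was highest in air.

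Lymphocyte genes were split. Of 31 that met the brightness condition 4 were lower in the range and 2 over 2-fold lower, but 14 lay above 0 and 14 below, and the median difference was 0.00. Cd3e, a chain of the T cell receptor complex, read 9.90, 9.73 and 9.04. Cd3g, another chain of that complex, read 7.05, 6.54 and 5.64. Cd4, the coreceptor for MHC class II, read 8.38, 8.34 and 7.54. In all of these air was the highest array, and so it was in Klrb1b, a natural killer receptor, with 7.95, 7.57 and 6.66. Lag3, a neighbour of Cd4 in the genome that was chosen after its values were seen, read 6.51, 5.91 and 5.24.

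The marker lists of these cells gave sums of linear signal, again in the order air, continuous CS, intermittent CS, that a few bright genes carried. The 24 monocyte and dendritic cell markers summed to 6750, 10900 and 7450. Ace, which is also on the endothelial list, and Ly6c2 held 84.8% of the continuous CS sum, and the other 22 markers summed to 1900, 1660 and 1290. The 21 neutrophil markers summed to 138000, 84200 and 94400, of which Hdc, the enzyme that makes histamine, alone held at least 97.3%. The other 20 summed to 1670, 2260 and 1030, in the direction of the single genes, of which 17 of 21 were lower with intermittent CS. The 20 T and NK cell markers summed to 2690, 2360 and 1790, although 9 were higher with intermittent CS and 7 lower. Cd3e held at least 29.4% of each sum, and the other 19 summed to 1730, 1510 and 1260. Of 15 B and plasma cell markers 10 were higher and 2 lower. The 17 alveolar macrophage markers summed to 8600, 9900 and 7660, and without Chil3 and Plet1 the other 15 to 2650, 2220 and 1650. Mpeg1, with 10.55, 9.86 and 9.06, was the brightest of these 15 on every array, so their sums lean on 1 gene. Of all 17 markers 9 were lower with intermittent than with continuous CS, 4 were higher and 4 equal. Adgre1, the macrophage marker F4/80, read 5.11 on all arrays, below the receptor level. The part of these cells in the result was not tested.

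PU.1 is the transcription factor that drives most myeloid genes, and 2 promoters of lower members that hold GAGGAAGT, a form of its site, are shown with the match in capitals (GRCm38.p6). Inpp5d lies at chr1:87620252-87620311 (plus strand, match starting 20 bases before the gene's start) and Pirb at chr7:3720455-3720542 (minus strand, 120 bases before the start).
Inpp5d: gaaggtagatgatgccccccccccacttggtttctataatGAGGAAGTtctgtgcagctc
Pirb: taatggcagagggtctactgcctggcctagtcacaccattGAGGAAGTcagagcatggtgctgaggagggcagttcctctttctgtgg
The letters stood in 16 of 276 windows of the lower members (5.80%), in 3 of 135 of the higher members (2.22%), in 3.06% of the windows of genes that met the brightness condition and in 3.20% of all windows. They were found in leukocyte genes such as Ctss, Mmp12, Cd300lf and Pik3cg, but also in Nostrin, an endothelial gene, in Yrdc, of tRNA modification, and in the higher members Adsl, Exoc7 and Gstp3.

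**Figure D3:**
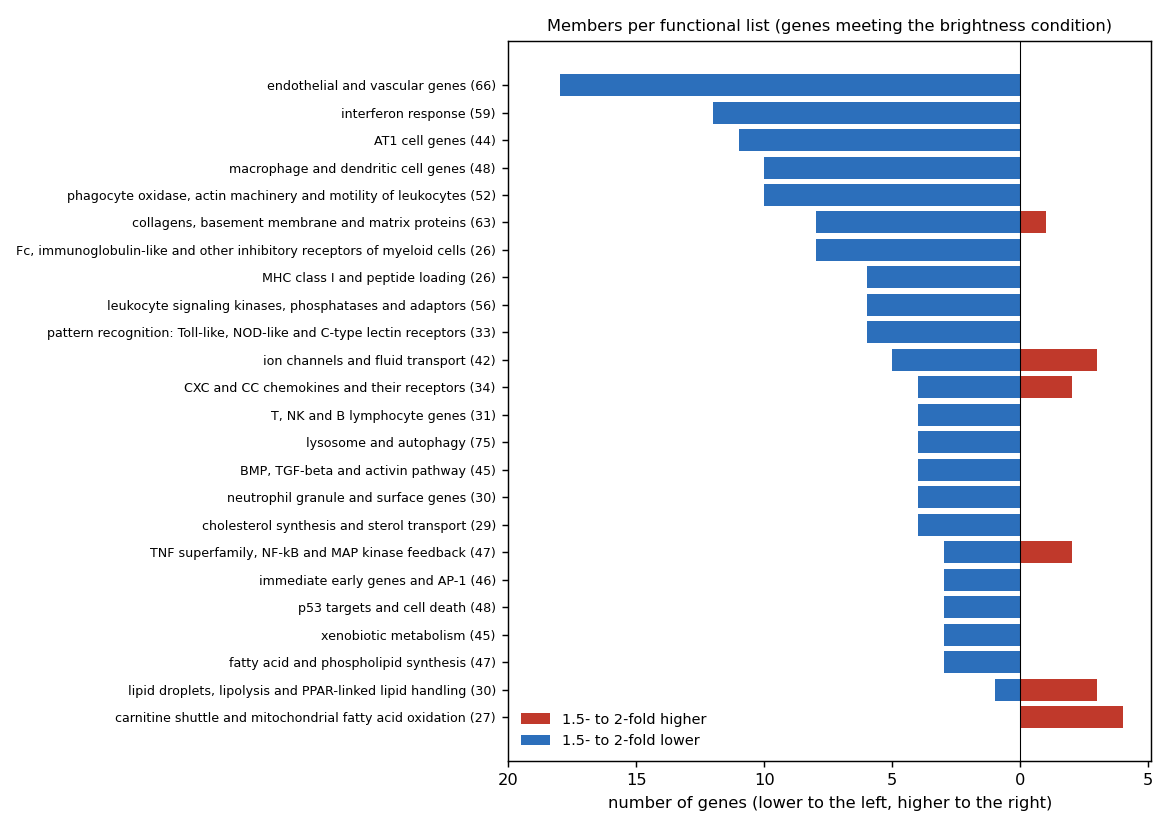
Number of genes 1.5- to 2-fold lower (left, blue) and higher (right, red) with intermittent CS in each functional list with at least 3 members in 1 direction. The number after each name is that of the list's genes that met the brightness condition. Endothelial genes have the longest bar with 18 lower, and fatty acid oxidation is the one list with 4 higher and none lower.

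By count, endothelial genes gave more lower members than any other of the 49 functional lists. By share they gave 27.3%, below the 30.8% of the Fc and inhibitory receptor list. Over all clusters that met the brightness condition the share was 2.49%. Of 66 endothelial genes that met the condition 18 were 1.5- to 2-fold lower and 18 over 2-fold lower. Of the 66, 59 lay below 0, none was in the higher range, and the median difference was -0.67. Kdr, the main VEGF receptor, read 9.60 (air), 10.55 (continuous CS) and 9.58 (intermittent CS), a 1.95-fold difference. Thbd, which turns thrombin into an anticoagulant, read 9.97, 10.84 and 9.88. Pecam1, the junction protein CD31, read 8.93, 9.96 and 8.99. In Kdr, Thbd and Pecam1 air and intermittent CS lay within 0.10 of each other, and continuous CS stood 0.87 to 1.03 log2 units above both. Adgrl4, an adhesion receptor of vessels, read 9.64, 11.13 and 10.28. Cldn5, of the tight junctions of vessels, read 8.13, 8.67 and 7.92. Dll4, a Notch ligand of tip cells, read 8.01, 9.41 and 8.46. In Adgrl4 and Dll4 intermittent CS lay between air and continuous CS, and in Cldn5 below both. Over the 18 members the median of continuous CS minus air was 0.88 and that of intermittent CS minus air 0.04, and in 16 of 18 the air value lay nearer to intermittent CS. Lyve1, Ecscr, Robo4, Sox18, Gja5, Nostrin, Tbx3, Car4, Cav1, Icam2, Hpgd and Acvrl1 complete the list.

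Of 24 endothelial markers 22 were lower with intermittent than with continuous CS, and the summed signal of the 24 was 16500 for air, 35100 for continuous CS and 16100 for intermittent CS. Calcrl held at least 20.6% of each sum, and the other 23 summed to 12300, 26300 and 12800 in the same order. All the same, 23 of 24 lay above the receptor level with intermittent CS. The part of endothelial cells in the result was not tested.

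Matrix genes showed a like order of arrays. Of 63 genes 8 (12.7%) were lower in the range, 4 over 2-fold lower and 1 (1.59%) higher, with a median difference of -0.02. Over all clusters that met the brightness condition 2.49% were lower and 1.27% higher in the range. Mfap4, a microfibril protein, read 11.66 (air), 12.99 (continuous CS) and 12.14 (intermittent CS). Bgn, the proteoglycan biglycan, read 10.92, 12.15 and 11.26. Ogn, the proteoglycan osteoglycin, read 10.35, 11.27 and 10.63. Continuous CS was the highest and air the lowest array in each. Mgp, which holds back calcification, read 9.05, 10.01 and 9.29. Gsn, the actin-severing protein gelsolin, which is on the mesenchymal list, shared that order with 11.60, 12.94 and 12.25. Of the 8 lower matrix members air was the lowest array in 7. Col6a1, a chain of type VI collagen, was the higher member, with 8.16, 9.07 and 9.79. The 23 markers of fibroblasts, smooth muscle and pericytes summed to 166000, 197000 and 191000 in the same order, with 13 lower, 8 equal and 2 higher with intermittent CS. Npnt and Sparc held at least 89.0% of each sum, and the other 21 summed to 12600, 21600 and 10200. These sums in turn lean on Vim, the brightest of the 21 on every array, with 13.11, 13.69 and 12.42. Vim was lowest with intermittent CS, whereas Bgn, the next brightest, was lowest in air, so no order of air and intermittent CS is read from the sums. The part of these cells was not tested.

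Of 45 genes of the BMP, TGF-beta and activin pathways 4 (8.89%) were lower in the range, 1 over 2-fold lower and none higher. Over all clusters that met the brightness condition 2.49% were lower in the range. Over the list 21 genes lay above 0 and 17 below, with a median difference of 0.00. Acvrl1, the endothelial receptor ALK1, read 8.75, 9.64 and 8.81. Fstl3, which traps activin, read 8.51, 9.14 and 8.37. Bmp6, a ligand that vessels secrete, read 7.28, 8.37 and 7.55. In these 3, and in the ligand Tgfb2 with 7.04, 7.87 and 7.0, air lay nearer to intermittent CS.

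AT1 genes were among the lower members. Of 44 that met the brightness condition 11 (25.0%) were 1.5- to 2-fold lower, against 2.49% over all clusters that met it. A further 2 were over 2-fold lower, none was in the higher range, 31 lay below 0, and the median difference was -0.09. Clic5, a chloride channel family protein tied to the cortical cytoskeleton, read 14.92 (air), 15.54 (continuous CS) and 14.93 (intermittent CS). Pmp22, a tetraspan membrane protein, read 14.49, 15.10 and 14.38. Scnn1g, a subunit of the epithelial sodium channel that clears alveolar fluid, read 10.88, 11.51 and 10.77. In these 3 air and intermittent CS lay within 0.12 of each other. Pdpn, podoplanin, the surface marker of AT1 cells, read 9.36, 10.57 and 9.78. Hopx, a homeodomain cofactor of AT1 cells, read 9.62, 10.51 and 9.91. Igfbp2, which marks mature AT1 cells, read 8.46, 9.51 and 8.85. In all 6 continuous CS was the highest array, and over the 11 members the median of continuous CS minus air was 0.84 against 0.02 for intermittent CS minus air. Cav1, Cryab, Fstl3, Sema3a and Akap5 complete the 11, and Cav1 is also an endothelial gene.

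Ager, a widely used AT1 marker, read 18.08, 18.30 and 18.23 and was not a member. The 17 AT1 markers, all above the receptor level on every array, summed to 1030000 for air, 1180000 for continuous CS and 1210000 for intermittent CS. Ager, Cldn18 and Gprc5a held at least 89.2% of each sum, and Gprc5a, with 17.68, 18.19 and 18.45, was the one of them that was higher with intermittent than with continuous CS. The other 14 markers summed to 107000, 128000 and 107000, and 13 of all 17 were lower with intermittent than with continuous CS. The part of AT1 cells in the result was not tested.

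**Figure D4:**
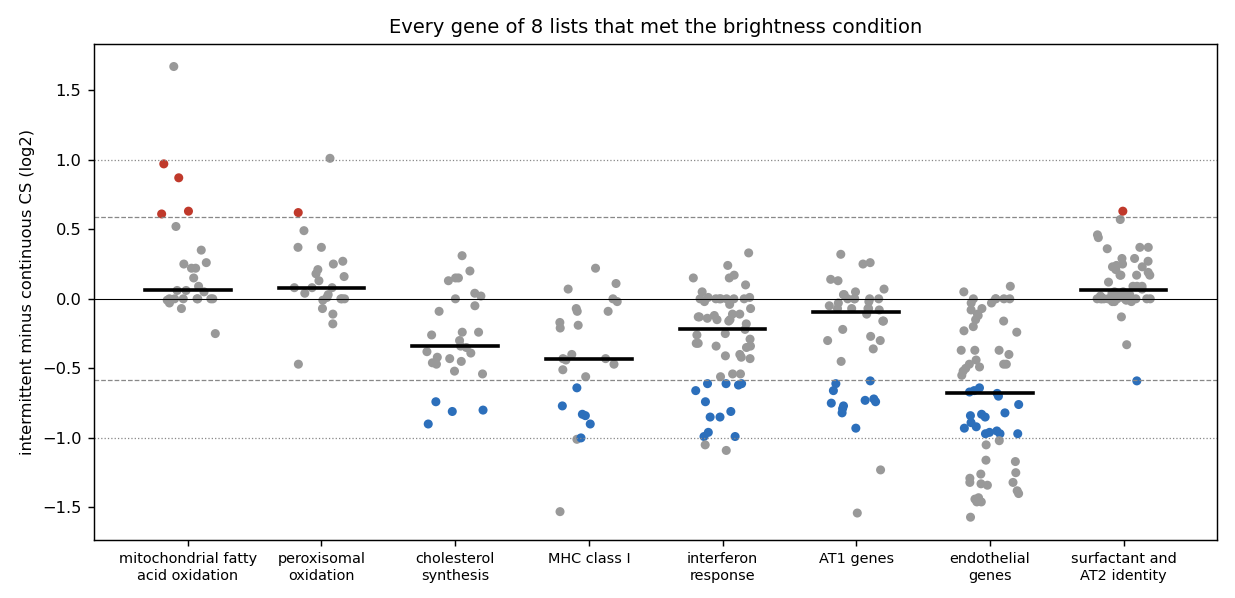
Intermittent CS minus continuous CS (log2) for each gene of 8 lists that met the brightness condition, members coloured red where higher and blue where lower, other genes grey, and the median of each list as a bar. Dashed and dotted lines mark 1.5-fold and 2-fold. The medians run from -0.67 in endothelial genes to 0.08 in peroxisomal oxidation, and the surfactant and AT2 genes cluster at and just above 0.

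Secreted signals were found on both sides. Of 34 chemokine and chemokine receptor genes 4 (11.8%) were lower in the range, 10 over 2-fold lower and 2 (5.88%) higher, and the median difference was -0.28. Over all clusters that met the brightness condition 2.49% were lower and 1.27% higher in the range. Cxcl1, which draws neutrophils, was higher and read 8.50 (air), 8.81 (continuous CS) and 9.69 (intermittent CS), a 1.84-fold difference. Ccr9, a receptor of gut-homing T cells, was the other higher gene, with 5.20, 5.60 and 6.22. Both were lowest in air. Ccl9, a ligand of Ccr1, read 8.20, 9.27 and 8.47. Cxcl12, the ligand of CXCR4, read 8.33, 9.01 and 8.28. Ccl17, which draws T cells, read 6.62, 7.65 and 6.82. Continuous CS was the highest array in these 3, while Ccl20 was highest in air, with 7.68, 7.58 and 6.91.

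Among 52 genes of interleukins and their receptors 2 were higher and 2 lower in the range, while 2 were over 2-fold higher and 4 over 2-fold lower. Csf2, the growth factor GM-CSF that AT2 cells give to alveolar macrophages, read 8.72, 9.03 and 9.90, a 1.83-fold difference. Lifr, the receptor of leukemia inhibitory factor, read 9.91, 10.78 and 11.40. Both were lowest in air and highest with intermittent CS. Il10ra, the receptor of interleukin 10, was lower and read 7.0, 6.91 and 6.12.

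Saa3, an acute phase protein that lung epithelium makes in inflammation, read 5.71, 10.36 and 11.11, so that the gap of 4.65 between air and continuous CS exceeded that of 0.75 between the CS arrays. In the TNF family, Tnfsf15, a ligand that activates T cells, was higher with 8.02, 8.80 and 9.5. Tnfrsf12a, the receptor of TWEAK, was also higher than with continuous CS but highest in air, with 9.96, 8.48 and 9.11. On the lower side Tnfaip2 read 7.83, 8.06 and 7.26. Irak3, a brake on Toll-like receptors, read 6.53, 7.19 and 6.28. Of 47 genes of that list 2 were higher and 3 lower in the range, and 1 over 2-fold lower.

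For receptor tyrosine kinases, 2 of 51 genes were higher and 1 was lower in the range, and 3 more, Hgf, Kit and Kitl, were over 2-fold lower. Fgfr3, an FGF receptor, read 9.53, 10.61 and 11.25. Epha2, an ephrin receptor, read 9.97, 10.08 and 10.79. Both were highest with intermittent CS, and Fgfr3 stood over 1 log2 unit above air on both CS arrays. None of 33 Wnt pathway genes fell in the range, and 1, Fzd4, was over 2-fold lower.

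Channels and carriers were also split. Of 42 genes 3 were higher and 5 lower in the range, and 2 over 2-fold lower. Itpr2, the channel that releases calcium from the endoplasmic reticulum, read 13.86 (air), 13.21 (continuous CS) and 13.80 (intermittent CS). Orai1, the plasma membrane channel that refills these stores, read 9.71, 9.31 and 9.97. Slc26a4, the anion exchanger pendrin, read 12.87, 11.42 and 12.04. In all 3 the continuous CS array was the lowest and air lay nearer to intermittent CS. Ano1, a calcium-activated chloride channel, had the opposite order with 11.24, 11.95 and 11.05. Slc6a8, the creatine transporter, read 13.70, 12.47 and 13.13, again lowest with continuous CS. Of 195 solute carriers 5 were higher and 5 lower.

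Of 45 genes of xenobiotic metabolism 3 (6.67%) were lower in the range, against 2.49% over all clusters that met the brightness condition. Another 2 were over 2-fold lower and none higher, while 12 lay above 0 and 20 below, with a median difference of 0.00. Cyp2s1, a cytochrome P450 that dioxin receptor ligands induce, read 8.02, 9.20 and 8.45. Akr1c14, an aldo-keto reductase of steroids, read 8.56, 9.25 and 8.55. Adh1, an alcohol dehydrogenase, read 6.27, 8.07 and 7.38. Air lay nearer to intermittent CS in all 3, and Adh1 and Cyp2s1 were lowest in air. Hsd11b1, which makes active glucocorticoid, read 8.03, 8.74 and 8.15. Mmp12, the macrophage elastase, read 9.39, 10.25 and 9.43. Tgm2, the tissue transglutaminase, read 7.91, 7.89 and 7.26. Air lay beside intermittent CS in Mmp12 and beside continuous CS in Tgm2. Adamtsl1, a secreted relative of the ADAMTS proteases, was higher than under continuous CS with 6.45, 5.77 and 6.53. Spink1, a trypsin inhibitor that was chosen after its values were seen, was at least 1.68-fold higher, with 5.35, 4.95 and 5.90.

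Of 48 genes of p53 and cell death 3 were lower and none was higher in the range, and the 3 became 1 after centring or quantile normalization and 0 after adding 32 to the linear values. Casp6, an executioner caspase, read 8.48, 8.98 and 8.38. Bcl2a1b, a survival protein of blood cells whose gene copies are nearly alike, read 9.26, 8.56 and 7.96. Ripk3, the kinase of necroptosis, read 5.58, 5.88 and 5.21. All 3 were lowest with intermittent CS. Of 75 genes of lysosomes and autophagy 4 were lower in the range and 1 over 2-fold lower, with a median difference of 0.00. Slc11a1, a metal transporter of phagosomes, was at least 1.61-fold lower, with 5.58, 5.82 and 4.95. Smpdl3b, a lipid-modifying enzyme of phagocytes, read 6.14, 6.77 and 6.01.

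The higher members with the brightest values were mixed in function. Adgrg1, an adhesion receptor, read 15.40 (air), 15.31 (continuous CS) and 15.91 (intermittent CS), a 1.52-fold difference. Zdhhc3, a palmitoyltransferase of the Golgi, read 14.53 in air and 14.37 under continuous CS and was 1.55-fold higher under intermittent CS. Glrx, glutaredoxin, which removes glutathione from proteins, read 14.12, 13.62 and 14.38. Tnfaip1, an adaptor of a cullin ubiquitin ligase, shared the order of these 3, lowest with continuous CS and highest with intermittent CS, with 13.48, 13.29 and 14.06. Gstp3, a glutathione transferase, read 12.38, 12.43 and 13.06. Phlda1 read 12.29, 11.87 and 12.59. Rasl11a, a small GTPase, read 13.97, 10.78 and 11.76, so that it came close to the upper limit while both CS arrays lay over 2 log2 units below air.

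On the lower side Plekha1, a phosphoinositide-binding adaptor, read 12.58, 13.02 and 12.42. Laptm5, a lysosomal protein of hematopoietic cells, read 13.42, 13.53 and 12.61. The latter is also one of the leukocyte markers given above.

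Of 50 genes of the unfolded protein, heat shock and integrated stress responses 2 were higher and 2 lower in the range, 4.0% each way. Of 22 clock genes 1 was higher and 1 lower, 4.55% each way. Over all clusters that met the brightness condition the shares were 1.27% higher and 2.49% lower. Hspa1a, one of a near-identical pair of genes for the inducible chaperone Hsp70, read 9.996, 9.93 and 10.60. Hspa1b, the other of the pair, read 8.50, 8.86 and 9.63. Both were highest with intermittent CS, and their probes may read both. Atf3, a stress-induced transcription factor, was lower, with 14.18, 12.93 and 12.13, and its air value was the highest. Cryab, a small heat shock protein, read 9.52, 10.51 and 9.77.

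Of 46 immediate early genes 3 were lower in the range, 1 was over 2-fold lower and 35 lay below 0, with a median of -0.22. Egr2 read 9.88, 9.91 and 9.23. Rgs2, a regulator of G protein signals, read 6.51, 6.33 and 5.60. Egr3 has 3 clusters that disagree, since the member read 5.74 with continuous CS and 6.52 with intermittent CS while another read 6.29 and 5.77, so no direction can be given for it.

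Clock, the circadian transcription factor, read 14.79, 13.48 and 14.08. Ciart, a repressor in the same loop, read 5.62, 9.61 and 8.96. Between air and either CS array both genes differed by more than between the CS arrays. No source used here gives the time of day at which the lungs were taken.

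Further groups were noticed among the higher members, and their lists were added after the values had been seen. Of 63 genes of DNA repair and ligation 4 (6.35%) were higher and 1 (1.59%) was lower, while 30 lay above 0 and 23 below. Over all clusters that met the brightness condition 1.27% were higher and 2.49% lower in the range. Lig1, the ligase of replication, read 6.43, 5.72 and 6.68. Lig4, which seals double-strand breaks, read 7.79, 7.29 and 8.12. Pold3, a subunit of a replicative polymerase, read 8.93, 8.60 and 9.28. In these, and in Xrcc3 of the recombination pathway with 7.48, 7.27 and 7.85, the continuous CS array was the lowest. Mpg, a glycosylase of alkylated bases, was lower and read 4.75, 5.84 and 5.22.

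Of 100 genes of ribosome biogenesis and RNA modification 9 (9.0%) were higher and 3 (3.0%) lower, against 1.27% and 2.49% over all clusters that met the brightness condition. In this list 46 genes lay above 0 and 37 below. Because both added lists were made for members already seen, nothing is read from their shares. Wdr3, of the small subunit processome, read 8.45, 7.38 and 8.12. Ltv1, of small subunit assembly, read 7.85, 7.31 and 7.91. Nsun2, an RNA cytosine methyltransferase, read 6.96, 6.53 and 7.14. Continuous CS was the lowest array in these 3 as well. The median difference of both lists was 0.00. Trp53rka and Trp53rkb, also counted there, are near-identical and may be 1 signal. Among 56 genes of the cell cycle Cdc20, an activator of the anaphase-promoting complex, was the only member, with 5.41, 5.26 and 6.08.

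The place of the air array differed between groups of members. Air lay between the CS arrays, ties included, in 79 of the 143 higher members, below both in 43 and above both in 21. For the 281 lower members these counts were 145, 71 and 65. In 86 of the higher (60.1%) and 144 of the lower members (51.2%) air lay nearer to continuous CS. Of the 6 lower MHC class I members all lay nearer to continuous CS, as did the 4 of cholesterol synthesis, whereas in 10 of 11 AT1 members and 7 of 8 matrix members air lay nearer to intermittent CS. The air array is part of each of these readings, and no test was made.

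**Figure D5:**
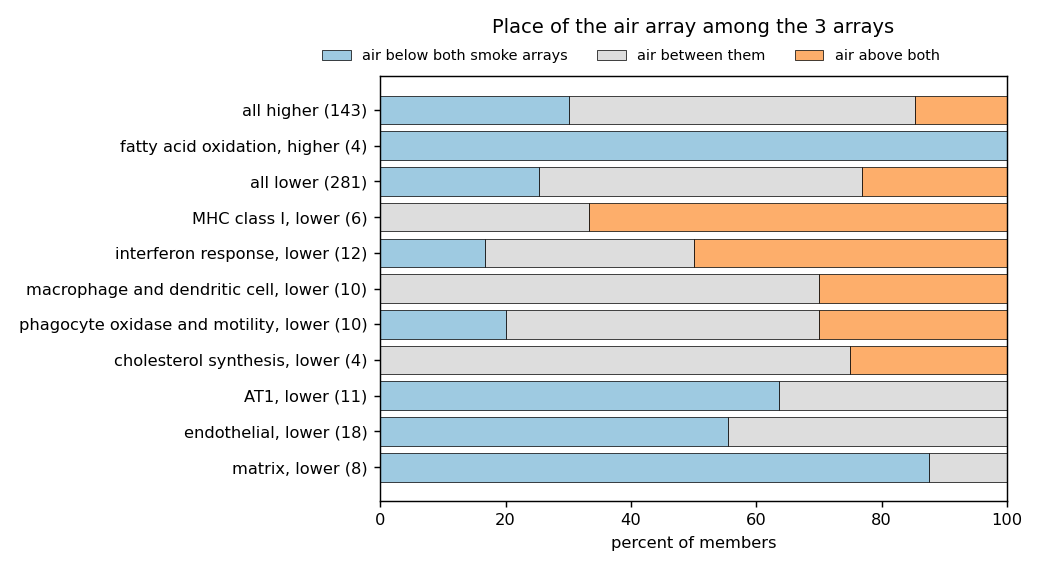
Percent of members in which the air array was below both CS arrays, between them or above both, for all members and for groups of them, with the number of members in parentheses. All 4 fatty acid oxidation members have air below both, 4 of 6 MHC class I members have it above both, and 7 of 8 matrix members have it below both.

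Part of the lower side lay in genes listed for other cell types. Of the 281 lower members 81 (28.8%) were on a list of endothelial, mesenchymal, AT1, airway or blood cells or of their typical genes, against 2 of the 143 higher members (1.40%) and 4.25% of all clusters that met the brightness condition. Outside these lists 200 lower members remained, 1.85% of such clusters, beside 141 higher ones, 1.30%. The lists are not complete, for Lag3, given above with the lymphocyte genes, is on none of them and counts among the 200. In the genome, 30 pairs of members lay next to each other or with 1 measured gene between them, and 25 of the pairs had the same direction. They include Rgs1 and Rgs2, Cd3e and Cd3g, Clec4e and Clec4n, and, with unlike direction, Acaa2 and Lipg.

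Other motifs were searched on both strands in the windows of 109 of 132 named higher and 201 of 261 named lower genes. Shares are given for the higher members, the lower members, the genes that met the brightness condition and all windows, in that order. The AP-1 site TGANTCA stood in 7.41%, 10.9%, 5.12% and 7.81%. The E-box CACGTG stood in 5.19%, 8.70%, 9.90% and 7.15%, so that both groups of members lay below the genes they come from. For the STAT site TTCCNGGAA the shares were 2.22%, 0.725%, 1.25% and 1.15%, from 3 and 2 windows of members. The NF-kB site GGGANTTCC was found in 5 windows of higher members (3.70%), 2 of lower members (0.725%), 2.19% and 1.68%. None of these runs contains another.

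The edges of the range divided genes that lay close together. Just inside the lower limit stood Xrcc3 and Aar2, both 1.501-fold higher, and Gpr132 and Gvin1, both 1.503-fold lower. Just outside it stood Rassf2 and Ndfip2, both 1.498-fold higher, and Krt19, a keratin, 1.495-fold lower. Near 2-fold, Raph1, Tedc2 and Rasl11a, each 1.972-fold higher, and Asap1, 1.999-fold lower, were inside, while Eci3, 2.017-fold higher, and Plek, 2.002-fold lower, were outside. Of the members, 11 higher and 20 lower clusters carry no gene symbol, among them a cluster with 17.06 under continuous CS and 16.09 under intermittent CS. Also 1 higher and 2 lower members are nose receptors. Without the brightness condition, 24 receptor clusters were 1.5- to 2-fold higher and 27 lower.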

How the data were processed

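RNA of AT2 cells pooled from 3 mice per exposure was measured on 1 array each. Per the labels, the authors used the Transcriptome Analysis Console, and they deposited log2 values for 22206 clusters. No source used here gives its version, summarization or normalization. The log2 values were used as deposited. Symbols came from the platform annotation and were checked against RefSeq (GRCm38.p6), which also gave the promoters; 2634 clusters have no symbol. Members and lists were chosen with earlier results of these data known. A list gene was read from its cluster with the highest mean. The genes named are the 12 members with the highest brighter value per direction, the 4 highest of each list with at least 3 members, and those nearest the limits. Genes given beyond these were chosen after their values were seen. Alternatives were other scalings, brightness conditions and limits. No count stands behind an array value, so the number of arrays limits the precision. The steps were tested on simulated data. Python 3.11.15, pandas 2.3.3, scipy 1.17.1, R 4.3.3 and limma 3.58.1 were used.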

Additional observations from a re-analysis of the deposited data

How the results depend on the processing

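The counts of 143 higher and 281 lower clusters moved most with the brightness condition and the limit. Without a brightness condition they were 255 and 451, with the brighter value at or above the 75th percentile of its array 66 and 101, with a lower limit of 0.7 on the log2 scale 62 and 168, and after adding 32 to each linear value the higher count was 90. Genes on any functional list numbered 170, and 91 at the 75th percentile. There the lower members of the endothelial list went from 18 to 8, of the interferon list from 12 to 6 and of the Fc receptor list from 8 to 2. Air lay nearer to continuous CS in 51.2% of the lower members, and in 44.9% after adding 32. Centring, quantile normalization and cyclic loess kept 137, 136 and 137 of the higher and 241, 251 and 273 of the lower clusters, and of 124 named genes 109, 111 and 115 stayed in the range, 103 after adding 32. Centring moved the median difference by 0.04 on the log2 scale. Raising values to the receptor level, added after the data had been seen, gave 144 and 284, and leaving out genes on lists of other cell types, also added then, 141 and 200. No paired analysis was possible because each exposure has 1 array. For the same reason no array could be left out, and whether any single difference exceeds the spread between mice cannot be told. The signal of dim clusters lies near that of the nose receptors.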
